A study of Mus musculus with 6 samples.

Results

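The Sox17 locus is taken here as the stretch of mouse chromosome 1 from 3,900,000 to 4,800,000 (mm9), and it was described through the chromatin contacts listed for its 5 kb bins in a Hi-C study of P19 cells. In Hi-C, chromatin is fixed and cut, nearby ends are joined, and each sequenced read pair records a contact between 2 places in the genome. A pair of bins was a member when either bin had its centre in the stretch, which gave 936 pairs out of 3,654,010 listed on the nuclear chromosomes. The stretch was selected on the number of listed pairs of 1 bin, centred on 4,127,500 and called the hub bin below, which had 120 listed pairs before treatment and few at the last time point. That loss is therefore a description and was not tested.

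P19 is a mouse embryonal carcinoma cell line, grown here as a monolayer on gelatin-coated plates and differentiated with all-trans retinoic acid (ATRA) at 1e-06 M in a study of chromatin structure and neuronal fate. The groups were untreated cells at 0 h (T0), cells after 6 h of ATRA (T6) and cells after 48 h of ATRA (T48), with 2 libraries each. No untreated cells at 6 h or 48 h are among the samples, so time in culture and ATRA cannot be told apart. The labels do not say that the 2 libraries of a group came from separate cultures, so their spread may be technical. The growth notes also name F9 cells, another embryonal carcinoma line, while every sample is labelled P19.

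Sox17 encodes a transcription factor with an HMG-box DNA-binding domain. It is known as a regulator of definitive endoderm and of vascular and blood development. The order of protein-coding genes around it in the RefSeq annotation (GRCm38.p6) is Xkr4, Rp1, Sox17, Mrpl15, Lypla1 and Tcea1. Rp1 encodes a microtubule-associated protein of photoreceptors, Mrpl15 a mitochondrial ribosomal protein and Lypla1 an acyl-protein thioesterase. Genes can be contacted by distant regulatory DNA within the same chromatin domain, and Hi-C maps show domains as blocks of frequent contact and some anchors as lines of contact that run to 1 side. These assays measured no transcript, so the level of Sox17 RNA in these libraries is not known from them.

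The file holds the raw number of read pairs for each pair of bins in each library, and the 2 libraries of a time point were either both above 0 or both 0. A 0 thus means that the pair was left off the list of that time point, which does not show that the contact was absent. The listed counts summed to 50,154,643 and 29,644,373 at T0, to 40,561,360 and 23,003,295 at T6, and to 43,500,876 and 29,554,481 at T48. The median listed count was 14 and 9 at T0, 13 and 8 reads at T6, and 12 and 9 reads at T48, so most pairs rest on few reads. CPM below stands for read pairs per 1,000,000 listed read pairs of the library.

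The locus had fewer listed pairs at T6 and T48 than at T0, and for T48 the difference lay almost wholly in the hub bin, chr1:4125001-4130000. The whole locus had 522 pairs at T0, then 373 at T6 and 406 at T48. The hub bin had 120, 33 and 5 of them. The remaining pairs of the locus numbered 402 at T0, then 340 at T6 and 401 at T48, so that T48 held 99.8% and T6 84.6% of the T0 number. Over the whole list those shares were 95.5% and 84.6%. Without the hub bin, the locus had 209 and 197 CPM at T6 and 222 and 210 at T48, against 214 and 203 at T0.

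**Figure D1:**
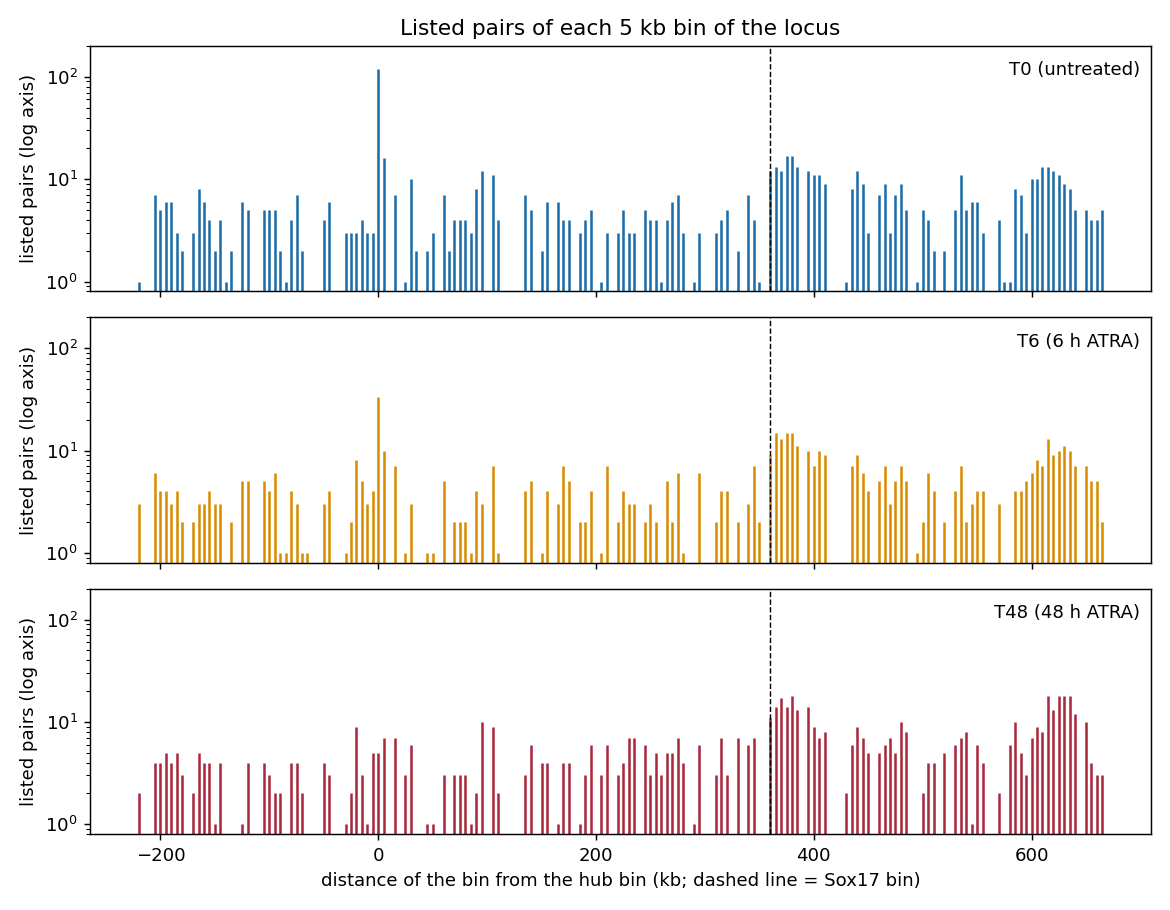
Number of listed pairs of each 5 kb bin of the locus at T0, T6 and T48 (log axis), against the distance of the bin from the hub bin in kb; the dashed line marks the Sox17 bin. The hub bin stands at 120 pairs at T0, then 33 at T6 and 5 at T48, while no other bin exceeds 18 pairs at any time point.

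Among the 376,858 bins of the genome with any listed pair, the median number of pairs was 9 at T0, then 8 at T6 and 9 at T48. The hub bin's 120 pairs at T0 were matched or exceeded by 39 bins (the hub bin included), 21 of them on chromosome 1. At T6 its 33 pairs were still above the 99th percentile of 26. At T48 its 5 pairs were below the median. The other listed bins of the locus, with their pairs to the hub bin left out, had a median of 4 pairs at each time point, and their highest values were 17, 15 and 18. Of the 180 bins in the stretch, 44 had no listed pair at any time point.

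Loss on this scale was uncommon among bins with many pairs. Of 106 bins with at least 100 pairs at T0, 72 had at least 50% of that number at T48 and 3 had at most 10 pairs. All 3 lie on chromosome 1, which holds 57 of the 106. Beside the hub bin they are chr1:138430001-138435000, with 103 pairs at T0, then 12 at T6 and 8 at T48, and chr1:191830001-191835000, with 105, 11 and 7. Because the hub bin was picked for this loss, these counts describe it and support no test.

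The contacts of the hub bin at T0 ran to 1 side. Of its 120 partners, 107 had lower coordinates than the hub bin and reached 1,115 kb away, and 13 had higher coordinates and reached 190 kb. Within 100 kb on the lower side it was paired with 14 of the 16 bins that have any listed pair (87.5%). The share was 91.3% from 100 to 250 kb, 85.4% from 250 to 500 kb, 53.2% from 500 to 750 kb and 22.9% from 750 to 1,000 kb. On the higher side it was 60.0% within 100 kb and 33.3% from 100 to 200 kb. None of the 46 bins from 200 to 500 kb on that side was paired with it.

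The partners were mostly ordinary bins. Their median number of pairs at T0 was 5, and 75 of the 120 lay outside the locus. The 5 named contacts over 20 kb are those with the most reads summed over all 6 libraries, which favours pairs also listed at T6. They had 9 to 37 reads per library at T0, and others were as strong there, such as the pair with the bin 45 kb below, with 29 and 10. With the bin 25 kb away on the lower side it had 37 and 14 reads at T0, and with the bin 30 kb away on the higher side 33 and 12, and neither pair was listed later. With the bin centred on 3,932,500 it had 16 and 11 reads at T0 and 9 and 8 at T6, and this pair was not listed at T48. The pairs centred on 4,002,500 and 3,967,500 did the same, with 18 and 10 reads and 17 and 9 reads at T0, and 7 and 9 reads and 6 and 8 reads at T6.

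**Figure D2:**
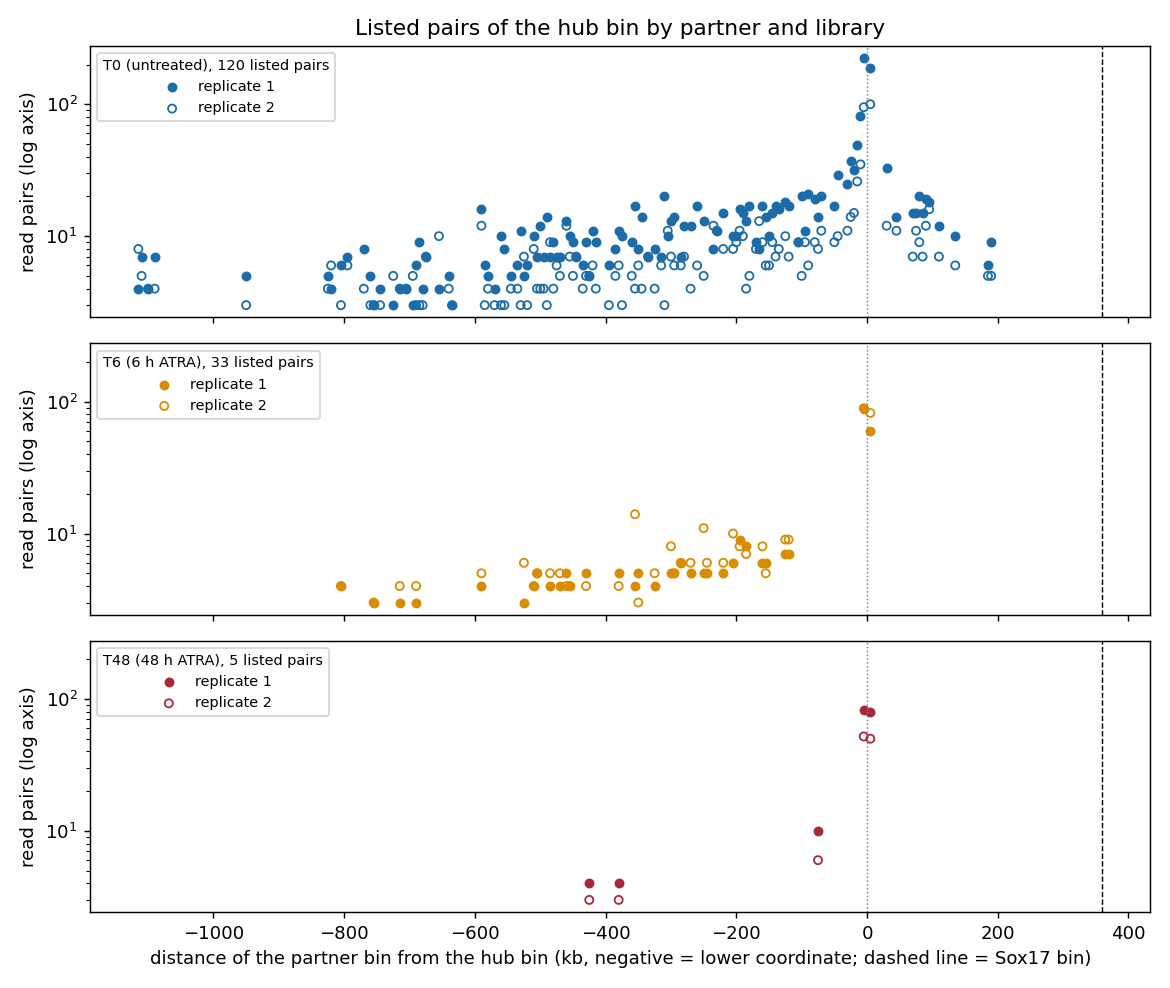
Read pairs (log axis) of every listed pair of the hub bin at T0, T6 and T48, against the distance of the partner bin in kb (negative for lower coordinates); filled points are replicate 1, open points replicate 2, and the dashed line is the Sox17 bin. At T0 the 107 partners on the lower side form a line of contacts out to 1,115 kb, and no partner at any time point reaches the Sox17 bin.

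The partner with the most pairs of its own was chr1:3535001-3540000, 590 kb below the hub bin, where below means toward lower coordinates. It had 72 pairs at T0, then 61 at T6 and 8 at T48. Its pair with the hub bin had 16 and 12 reads at T0 and 4 and 5 at T6, and was not listed at T48. Apart from the hub bin, its pairs with the locus numbered 13 at T0, then 6 at T6 and 2 at T48. Its number of pairs fell mainly between T6 and T48, while that of the hub bin fell mainly between T0 and T6.

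The list itself changed heavily between time points, since 59.8% of all T0 pairs were not listed at T6 and 59.1% were not listed at T48. Of the hub bin's 120 pairs at T0, 32 were listed at T6 (26.7%) and 5 at T48 (4.17%). For the other pairs of the locus, 147 of 402 were listed at T6 (36.6%) and 154 at T48 (38.3%), against 40.2% and 40.9% of the whole list and 47.5% and 45.1% on chromosome 1. The hub bin's pairs were long, and long pairs left the list more often. Among pairs over 20 and under 500 kb apart, 70.3% of the whole list's T0 pairs were not listed at T6 and 72.1% were not listed at T48. In that range the hub bin kept 22 of 77 pairs at T6 (28.6%), against 29.7% over the whole list and 39.4% on chromosome 1, and 3 of 77 at T48, against 27.9% and 32.8%. At T6 the hub bin's share was thus near that of the whole list. The rest of the locus kept 26.5% at T6 and 22.5% at T48 in that range, below chromosome 1 at both.

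Relative to the lowest count listed at the same distance and in the same library, the median of the hub bin's T0 pairs at least 20 kb apart was 2.00 and 1.35 in the 2 T0 libraries, against 1.33 and 1.25 over the whole list. Of the 120, 45 (37.5%) were at least 1.5 times that lowest count in both libraries, and the others were not. That share was 23.3% over the whole T0 list and 26.8% on chromosome 1. At that stricter rule the hub bin had 45 pairs at T0, then 3 at T6 and 2 at T48, and the whole list had 444,436, 342,368 and 417,401.

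The 2 libraries at T6 did not give the same picture of the hub bin. Summed over its listed pairs, the hub bin had 302 reads in T6 replicate 1 and 358 in replicate 2, although replicate 1 is the deeper library. The ratio of replicate 2 to replicate 1 was 1.19 for the hub bin, 0.535 for the rest of the locus and 0.567 for the whole list. At T0 the hub bin's ratio was 0.552 and at T48 it was 0.630, close to the list's 0.591 and 0.679. Replicate 2 had the higher count in 19 of the 33 hub pairs at T6, in 10 of 120 at T0 and in none of the 5 at T48. Of 16,061 bins with at least 20 pairs at T6, 281 had a ratio at least as high as the hub bin's, and 104 of these were on chromosome 1.

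The 32 hub pairs listed at both T6 and T0 show the size of that disagreement. In CPM they held 7.32 in T6 replicate 1 and 15.3 in T6 replicate 2, against 14.7 and 13.1 in the T0 libraries. Replicate 2 thus lay above both T0 libraries and replicate 1 below both. Leaving out the 2 pairs with neighbouring bins, the other 30 held 3.67 and 7.87 CPM at T6, against 6.50 and 6.51 at T0. These pairs were listed at T6 by definition, so their sum there leaves out every pair that fell below listing.

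The pairs of the hub bin with its direct neighbours were listed at all 3 time points. With the bin 5 kb below it had 223 and 95 reads at T0, 88 and 89 reads at T6, and 83 and 52 reads at T48. In CPM this was 4.45 and 3.20 at T0, 2.17 and 3.87 CPM at T6, and 1.91 and 1.76 CPM at T48. T6 replicate 1 was near the T48 libraries, and T6 replicate 2 lay between the T0 libraries. With the bin 5 kb above it had 188 and 100 reads at T0, 60 and 82 reads at T6, and 80 and 50 reads at T48, which was 3.75 and 3.37, 1.48 and 3.56, and 1.84 and 1.69 CPM. The T48 libraries were below both T0 libraries for each of the 2 pairs, with log2 differences of -1.08 and -1.03 between T48 and T0. Over all tested pairs of the genome, 18.3% had both T48 libraries below both T0 libraries. Because the hub bin was selected for its loss between T0 and T48, this order is a description and gives no support from replicates.

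**Figure D3:**
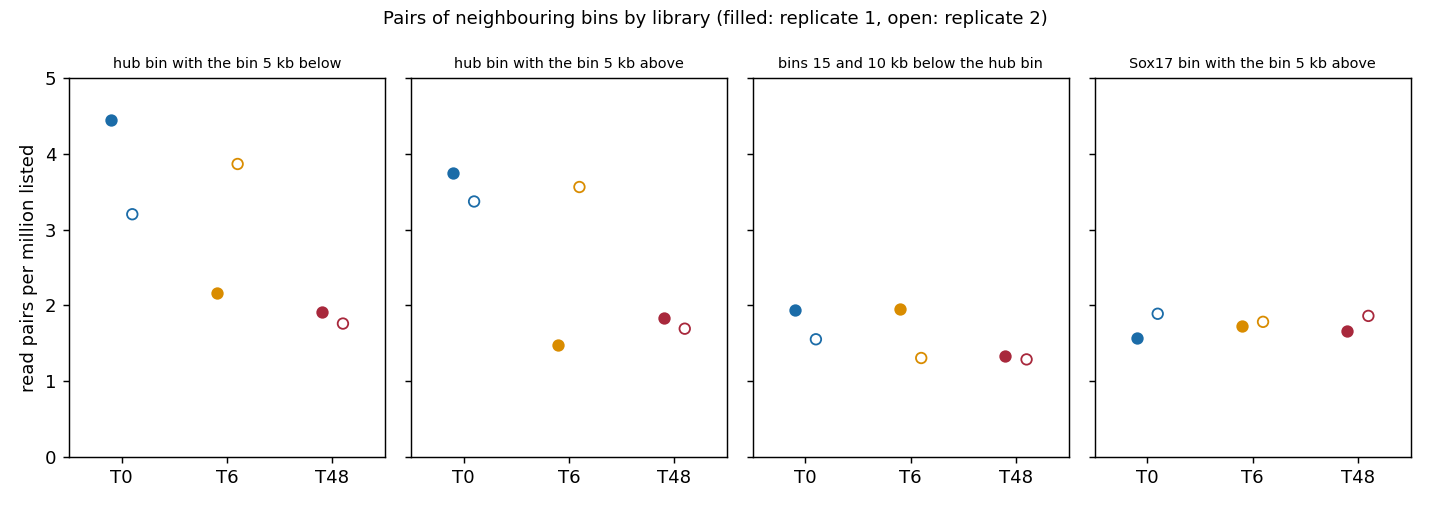
CPM of pairs of neighbouring bins at T0, T6 and T48 (filled points replicate 1, open points replicate 2): the hub bin with the bin below it, the hub bin with the bin above it, the bins 15 and 10 kb below the hub bin with each other, and the Sox17 bin with the bin above it. For both hub pairs T6 replicate 1 lies near the T48 libraries and T6 replicate 2 between the T0 libraries, while T6 replicates 1 and 2 stand at 1.95 and 1.30 in the third pair and at 1.73 and 1.78 in the fourth.

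A pair that does not include the hub bin, joining the bins 15 and 10 kb below it, had 97 and 46 reads at T0, 79 and 30 reads at T6, and 58 and 38 reads at T48. In CPM this was 1.93 and 1.55 at T0, 1.95 and 1.30 CPM at T6, and 1.33 and 1.29 CPM at T48. The T6 libraries kept the order of the T0 libraries there. edgeR's quasi-likelihood test gave T48 over T0 a log2 difference of -0.44 with a standard error of 0.223 and an adjusted p of 0.922.

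Among the neighbours of the hub bin, the bin 5 kb above also had fewer pairs at T48, and the others had few at any time point. The bin 5 kb below had 3, 4 and 5 pairs at T0, T6 and T48, and the bins 10 and 15 kb below had 3, 3 and 1 and 4, 5 and 3. The bin 5 kb above had 16, 10 and 7 pairs, and the bin 15 kb above had 7 at each time point. The bin 10 kb above had no listed pair. These numbers include the pair with the hub bin itself. The deposited counts carry no stated correction for the coverage of a bin. The raw reads of the hub bin were highest at T0 in each distance band in which it had a listed pair. The bin was selected for its many listed pairs at T0, and unlisted pairs add no reads. That order of the reads thus largely follows from the selection. The part of coverage in the loss was not tested.

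The Sox17 interval of 4.481 to 4.487 Mb falls in 2 bins. The bin chr1:4480001-4485000 has no listed pair at any time point. The bin chr1:4485001-4490000, called the Sox17 bin here, had 12 pairs at T0, then 9 at T6 and 11 at T48, against the genome's median of 9, 8 and 9. It lies 360 kb above the hub bin. No listed pair joined the hub bin or its direct neighbours to either of the 2 bins at any time point.

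Every partner of the Sox17 bin had a higher coordinate. With the next bin it had 79 and 56 reads at T0, 70 and 41 reads at T6, and 72 and 55 reads at T48. The pair 10 kb apart had 46 and 26 reads at T0, 39 and 21 reads at T6, and 45 and 22 reads at T48. Neither changed past the test, with edgeR log2 differences for T48 over T0 of 0.011 with a standard error of 0.197 and 0.00049 with a standard error of 0.187.

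Of the 16 partners it had over the 3 time points, 8 stood 250 to 290 kb away. Its pair with the bin centred on 4,757,500, at 270 kb, had 10 and 8 reads at T0, 15 and 5 reads at T6, and 16 and 9 reads at T48. The pair at 275 kb had 11 and 7 reads at T0, 10 and 7 reads at T6, and 10 and 10 reads at T48. The pair at 265 kb had 7 and 6 reads at T0, 6 and 8 reads at T6, and 15 and 6 reads at T48. TMM is the trimmed mean of M values, edgeR's correction for depth and composition. TMM-scaled CPM are relative to the tested pairs, which were listed at all 3 time points, and not to all listed pairs. On that scale the pair at 270 kb had 0.641 and 0.542 at T48, against 0.350 and 0.489 at T0, without overlap. The T48 and T0 libraries overlapped there for the other 2 pairs. In CPM of all listed pairs, the pair at 265 kb did not overlap either. It had 0.345 and 0.2030 at T48, against 0.140 and 0.2024 at T0. Over all tested pairs of the genome, 17.5% had both T48 libraries above both T0 libraries on the TMM scale. The edgeR log2 differences for T48 over T0 were 0.58 (SE 0.337), 0.26 (SE 0.338) and 0.79 (SE 0.484), with adjusted p of 0.964, 0.998 and 0.954. A pair at 280 kb was also listed at all 3 time points, with 7 and 6, 5 and 3, and 6 and 5 reads.

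Other contacts of the Sox17 bin came and went at the edge of listing. The pair at 75 kb had 10 and 7 reads at T0 and 10 and 6 at T6, and was not listed at T48. The pairs at 150, 175 and 220 kb were listed only at T48, with 6 and 5, 7 and 4, and 12 and 4 reads. At these counts a pair can leave the list by the loss of a few reads.

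**Figure D4:**
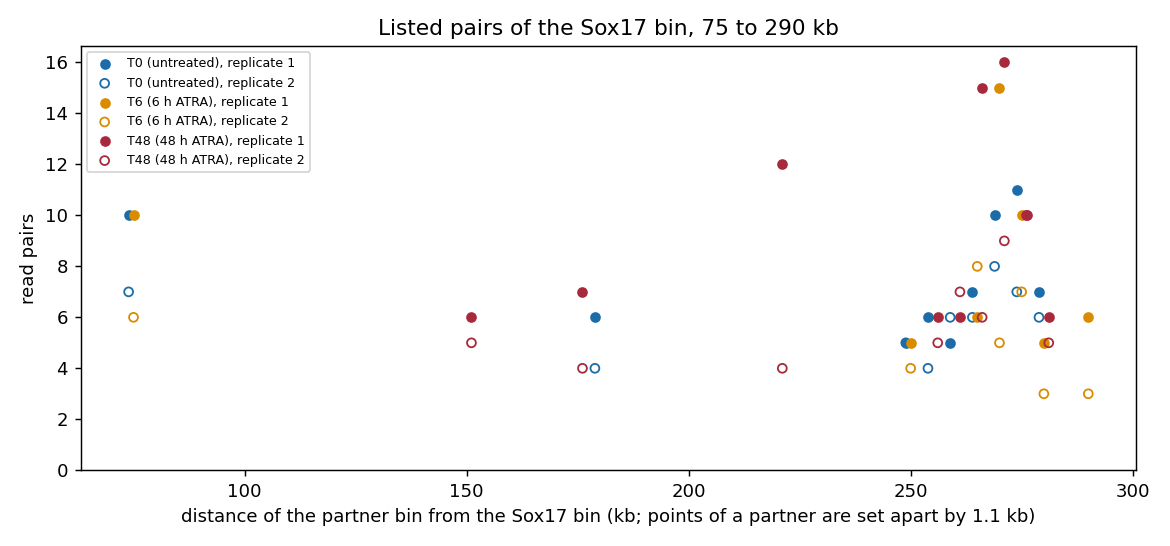
Read pairs of the listed pairs of the Sox17 bin against the distance of the partner bin in kb, by library (filled points replicate 1, open points replicate 2; T0, T6 and T48 set apart slightly). A cluster of partners stands 250 to 290 kb away, of which the pairs at 265, 270, 275 and 280 kb are listed at all 3 time points.

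These distant contacts were shared by the bins next to Sox17. A block of pairs joined chr1:4485001-4535000, the Sox17 side, with chr1:4730001-4790000, the far side. These limits were set after the values had been seen. Of the 99 possible pairs of bins with any listed contact, 43 were listed at T0, then 37 at T6 and 50 at T48, or 43.4%, 37.4% and 50.5%. Between the Sox17 side and nearer bins, 100 to 220 kb away, the shares were 8.33%, 5.56% and 12.8%. Over all bin pairs of chromosome 1 that are 200 to 300 kb apart they were 2.68%, 2.51% and 2.29%.

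Pairs of that block that were listed throughout had counts of similar size at the 3 time points. The 22 pairs listed at all 3 time points held 4.83 and 4.96 CPM at T0, 4.96 and 5.65 CPM at T6, and 5.43 and 5.01 CPM at T48. All its listed pairs together held 7.96 and 8.80 CPM at T0, 8.04 and 9.26 CPM at T6, and 10.3 and 10.5 CPM at T48, sums that move with the number of listed pairs. 1 pair of the block, 4,522,500 with 4,752,500, had 15 and 8 reads at T0, 8 and 5 reads at T6, and 5 and 6 reads at T48. Its edgeR log2 difference for T48 over T0 was -0.94 with a standard error of 0.366 and an adjusted p of 0.913.

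The hub bin and Sox17 lay on opposite sides of a stretch that few contacts spanned. Counting pairs under 500 kb apart that span a given position, and leaving the hub bin's pairs apart, the number at 4,350,000 was 4 pairs at T0, then 5 at T6 and 12 at T48. It was the lowest of the locus at T0 and T6, and the lowest at T48 was 8, at 4,300,000. The median over 3,816 such positions on chromosome 1, 50 kb apart, was 52, 42 and 40. At or below the value at 4,350,000 were 0.839% of positions at T0, 1.83% at T6 and 9.64% at T48. None of the hub bin's own pairs spanned this position. The position was picked as the lowest of the locus at T0.

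**Figure D5:**
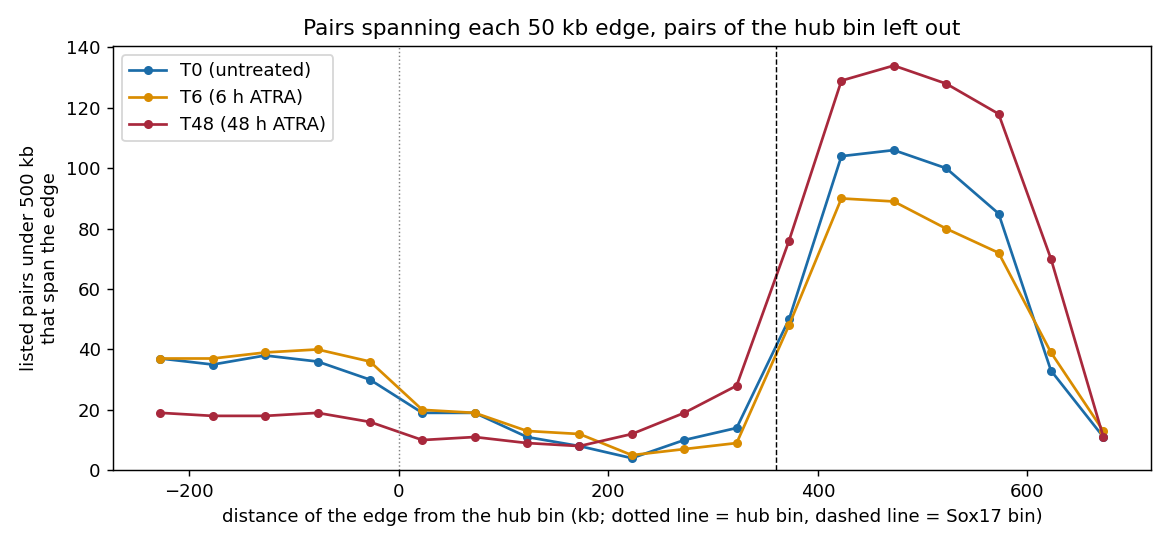
Number of listed pairs under 500 kb apart that span each of 19 positions 50 kb apart along the locus at T0, T6 and T48, with the hub bin's pairs left out, against the distance from the hub bin in kb. The T0 and T6 numbers are lowest at 4,350,000, 222.5 kb above the hub bin; the T48 line runs below the T0 line up to 4,250,000, meets it at 8 pairs at 4,300,000 and runs above it from 4,350,000 to 4,750,000, and both end at 11.

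The numbers of longer listed pairs differed between T48 and T0 in opposite directions on the 2 sides. On the hub bin's side, below 4,350,000 and without the hub bin, pairs at least 20 kb apart numbered 110 at T0, then 93 at T6 and 73 at T48, so that T48 over T0 was 0.664. On the Sox17 side they numbered 154, 132 and 174, a ratio of 1.13. Over the whole list that ratio was 0.936, and on chromosome 1 it was 0.817. Pairs of chr1:3535001-3540000 were kept in these counts. With the whole locus, apart from the hub bin, that bin had 13 pairs at T0, then 6 at T6 and 2 at T48. Pairs at least 20 kb apart that join the 2 sides numbered 9 at T0, then 10 at T6 and 26 at T48. In CPM, the hub bin's side held 11.1 and 12.3 at T48, against 16.6 and 20.3 at T0. The Sox17 side held 39.9 and 41.0 at T48, against 34.2 and 36.8 at T0. The pairs joining the sides held 3.03 and 3.21 at T48, against 0.698 and 0.978 at T0. T48 and T0 libraries did not overlap in any of the 3 sums, which again move with the number of pairs listed. A pair left off the list is missing from both libraries of its time point. The lack of overlap therefore gives no support from replicates. The sides were also divided at the position picked as the lowest of the locus at T0, which favours few joining pairs at T0.

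At 4,100,000 the spanning pairs numbered 16 at T48 against 30 at T0, and at 4,200,000 11 against 19. At 4,500,000 they numbered 76 at T48 against 50 at T0, at 4,600,000 134 against 106, and at 4,750,000 70 against 33. The ratio at 4,500,000 was 1.52, above that of 94.5% of positions on chromosome 1, whose median was 0.807, and the ratio at 4,750,000 was 2.12. On the hub bin's side the ratio was 0.533 at 4,100,000 and 0.579 at 4,200,000. Lower ratios were found at 16.8% and 21.8% of positions, so these losses were less unusual. Neighbouring positions share pairs and are not independent. Lists were made per time point, so these numbers have no replicate error and were not tested.

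Weak pairs made up most of that difference, and they made up most of the whole list as well. Among pairs at least 20 kb apart, the hub bin's side had 1 pair listed at all 3 time points and the Sox17 side 28. At the stricter rule of 1.5 times the lowest listed count, the hub bin's side had 9 such pairs at T0, then 6 at T6 and 2 at T48. The Sox17 side had 18, 20 and 21. Over the whole list, 227,857 of 1,419,339 pairs at least 20 kb apart met that rule at T0. At T6 they were 178,729 of 1,184,213, and at T48 194,721 of 1,327,874.

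Summed over the 3 time points, the bins of the locus with the most pairs after the hub bin lay near Sox17 or on the far side. The bin chr1:4505001-4510000 had 17, 15 and 18 pairs at T0, T6 and T48, chr1:4500001-4505000 had 17, 15 and 14, chr1:4740001-4745000 had 13, 13 and 18, and chr1:4490001-4495000 had 13, 15 and 14. The bin chr1:4495001-4500000, with 12, 13 and 17, tied with the last at a sum of 42. At T0 alone, the bin 5 kb above the hub bin, with 16 pairs, ranked above all but the first 2 of these. Among bins with at least 20 pairs over the 3 time points, the largest gains at T48 over T0 were at chr1:4105001-4110000, with 9 against 3, chr1:4765001-4770000, with 12 against 5, and chr1:4760001-4765000, with 18 against 8. The largest losses apart from the hub bin were at chr1:4130001-4135000, with 7 against 16, chr1:4735001-4740000, with 8 against 13, and chr1:4530001-4535000, with 7 against 11. Gains and losses thus stood side by side on the far side. These numbers include each bin's pair with the hub bin, without which chr1:4130001-4135000 had 6 against 15. Of all 135 other bins of the locus, 45 had more pairs at T48 than at T0, 71 had fewer and 19 had the same number. With the pairs of the hub bin left out, 51 had more, 57 had fewer and 27 had the same number.

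The largest loss at T6 over T0 apart from the hub bin, at chr1:4220001-4225000, was not seen at T48, since it had 12 pairs at T0, then 3 at T6 and 10 at T48. At the limits of the stretch the numbers were small on both sides. The first listed bins inside had 1, 3 and 2 pairs at the low end and 5, 2 and 3 at the high end. The first outside had 6, 3 and 4, and 5, 2 and 4.

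No pair of the locus passed the test on counts. It was run with edgeR's quasi-likelihood method on the 496,203 pairs that were listed at all 3 time points and passed a filter on low counts, with Benjamini-Hochberg adjustment at 0.05. The calls over the whole table were 0.0% of pairs in each of the comparisons T6 over T0, T48 over T0 and T48 over T6. Of the 104 locus pairs listed at all 3 time points, 89 passed the filter. Pairs of the hub bin are left out of the test here, since its T0 and T48 values chose the stretch. None of the other 87 was called in any of the 3 comparisons. At an unadjusted p under 0.05 there were 2, 1 and 1 for T6 over T0, T48 over T0 and T48 over T6, against 3.17%, 5.52% and 5.06% of the whole table. DESeq2 called none of the locus pairs outside the hub bin, with 0.000184%, 0.0175% and 0.0144% of the table called. For the locus pairs named here for a low p, it gave no adjusted p for T48 over T0 or T48 over T6. It thus could not call them in those comparisons.

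For T48 over T0, 55 of the tested pairs were higher and 32 lower, with a median log2 difference of 0.05, against 0.00 over the whole table. Without T48 replicate 1, 38 were higher and 46 lower, with a median of -0.03. For T6 over T0, 50 of the 87 were higher and 37 lower, with a median of 0.04, and without T6 replicate 1, 37 were higher and 49 lower, with a median of -0.04. The direction in each comparison thus turned with 1 library. The libraries of T48 lay wholly above those of T0 for 13 of 87 pairs and wholly below for 15, where the whole table had 17.5% and 18.3%. These shares are near the background.

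The lowest p among the locus pairs for T6 over T0 belonged to a pair on the far side, 4,777,500 with 4,787,500. It had 68 and 34 reads at T6, against 48 and 26 at T0, and 51 and 26 at T48. The edgeR log2 difference was 0.63 with a standard error of 0.192, an unadjusted p of 0.0110 and an adjusted p of 1.00. For T48 over T0 the lowest p belonged to 4,572,500 with 4,577,500, with 90 and 34 reads at T48, against 49 and 33 at T0. The log2 difference was 0.65 with a standard error of 0.277 and an adjusted p of 0.902. It was 0.15 without T48 replicate 1 and 0.97 without T48 replicate 2, so it rests on replicate 1. For the hub bin with the bin 5 kb above it, the log2 difference for T6 over T0 was -0.68, as a description without a test.

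Summed over 50 kb windows, no window of the locus passed the test either. Of 49,387 windows of the genome, 0.0% were called for T6 over T0, 0.0263% for T48 over T0 and 0.0182% for T48 over T6. The locus holds 18 windows, and none of the 17 without the hub bin was called in any of the 3 comparisons. At an unadjusted p under 0.05, none was found for T6 over T0, T48 over T0 or T48 over T6, against 1.73%, 8.59% and 6.72% of all windows. DESeq2 called none of them, with 0.0323%, 0.235% and 0.168% of all windows called in the same order. Outside the hub bin's window, log2 differences for T48 over T0 ran from -0.30 to 0.30.

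The window that holds the hub bin, chr1:4100001-4150000, is given as a description without a test. It had 9.99 and 13.4 TMM-scaled CPM at T6, against 17.3 and 13.8 at T0, and 9.33 and 8.88 at T48. These CPM are relative to the counts summed over all tested windows. The log2 difference for T6 over T0 was -0.43, and it was -0.22 without T6 replicate 1 and -0.64 without T6 replicate 2. With the hub bin's pairs removed, edgeR's quasi-likelihood test on the same window gave -0.13 with a standard error of 0.281 and an adjusted p of 1.00 for T6 over T0. For T48 over T0 it gave -0.27 with a standard error of 0.281 and an adjusted p of 0.842.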

How the data were processed

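Hi-C was compared between 6 libraries of P19 cells. The deposited table gives raw counts of read pairs per pair of 5 kb bins (mm9); CASAVA 1.8.2 and Bowtie2 are named per the submitters' processing notes. The enzyme, the contact caller and its threshold are not given in the sources used here. Another 4 pairs, all mitochondrial, were left out, and 0 columns were unused. Members, gene order and bins were chosen with earlier results of these data known.

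A pair was counted as listed where both counts of a time point were above 0. The stricter rule asked for 1.5 times the lowest listed count at that distance in each library. Pairs listed at all 3 time points were tested with edgeR 4.0.16 (TMM, filterByExpr, quasi-likelihood, 1 fit over 6 libraries, R 4.3.3), singly and per 50 kb window, with Benjamini-Hochberg adjustment over the table. DESeq2 1.42.0, other filters and window sizes, and leaving out each library were alternatives. Named bins were the hub bin, the Sox17 bins and their neighbours, the 5 with most pairs over the 3 time points, the 3 largest gains and losses per comparison and the limits of the stretch. Named pairs were the 5 with the lowest p per comparison and the 5 over 20 kb with the highest count summed over libraries for the hub and Sox17 bins. Tests of the hub bin's own pairs and window are not reported. On data simulated for T48 over T0, the pair test recovered 1% of 2-fold and 80% of 4-fold changes among 496,203 pairs, and the window test 88% and 100% among 49,387 windows. With 2 libraries a group, an exact permutation test cannot go below 0.333. No molecular identifiers are stated, so counts give counting error only.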

Additional observations from a re-analysis of the deposited data

Results flagged for a closer look

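Among the locus pairs named for a low p, 2 moved up at T6 and down at T48 in every library relative to both T0 libraries. Only named pairs were searched, and the share of all tested pairs with this order was not computed. The number 2 thus has no background to be compared with. The pair 4,422,500 with 4,442,500, below Sox17, had 1.24 and 1.29 TMM-scaled CPM at T6 and 0.841 and 0.964 at T48, against 1.08 and 1.22 at T0. Its mean log2 differences from T0 were 0.13 at T6 and -0.35 at T48, which are -0.49 apart. The pair 4,777,500 with 4,782,500, on the far side, had 2.79 and 2.57 at T6 and 2.12 and 2.17 at T48, against 2.38 and 2.38 at T0. Its differences were 0.17 and -0.15, which are -0.32 apart. The difference between the time points was tested with edgeR's quasi-likelihood method as T48 over T6, with adjusted p of 1.00 and 0.998, and neither was called.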

How the results depend on the processing

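The loss of listed pairs at the hub bin kept its order in each way of counting tried. Since the stretch was selected on this loss and each way counts largely the same pairs, the kept order gives no independent support. At 1.5 times the lowest listed count, the locus had 113 pairs at T0, then 58 at T6 and 77 at T48, the hub bin 45, 3 and 2, the Sox17 bins 3, 3 and 4, and the block of the Sox17 side with the far side 17, 14 and 17. This last count was added after the data had been seen. Among pairs at least 20 kb apart, the hub bin had 3 at T48. With the next bin on each side, the hub bin had 14 at T48 and the Sox17 bins had 25, 25 and 24 at T0, T6 and T48. No pair or window of the locus outside the hub bin was called by edgeR under any alternative that kept all 6 libraries, or by DESeq2. The hub bin's own pairs and window were not eligible for T48 over T0. For the locus pairs named for a low p, DESeq2 gave no adjusted p for T48 over T0 or T48 over T6, so it could not call them there. Over 16 named results, 159 of 159 alternative values kept their direction. These results were picked for a low p in the same libraries, so the kept direction gives no independent support. The split of all tested locus pairs into higher and lower turned without T48 replicate 1 or T6 replicate 1. The value that moved most was T6 over T0 for the hub bin with the bin 5 kb above it, from -1.44 to -0.11. The window of the hub bin ran from -0.64 to -0.22 with the hub bin's pairs kept, and stood at -0.13 with them removed. Over the genome, windows called for T48 over T0 numbered 13, against 116 with DESeq2, 18 at 25 kb, 2 at 100 kb and 0 among pairs at least 15 kb apart, and 0 without any single library. For T48 over T6 they numbered 9, against 83, 16, 0, 0 and 0 in the same order. For T6 over T0 they numbered 0, against 16 with DESeq2. Pairs called over the genome numbered 0 in each comparison, against 1, 95 and 78 with DESeq2 for T6 over T0, T48 over T0 and T48 over T6. With the replicate number as a block, 0 pairs and 0 windows of the locus outside the hub bin were called. Over the genome, 310, 193 and 12 windows were called for T48 over T0, T48 over T6 and T6 over T0. The deviations of same-numbered libraries correlated at 0.383, 0.326 and 0.323 across 496,203 pairs, a hint from 2 numbers only, since the labels give no shared origin. The cause of these differences in counts was not tested. Depth limits single pairs most, since a count near 10 reads can leave the list by a few reads.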
